A study of Mus musculus with 16 samples.

Results

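The genes of B cell receptor signalling were followed through 8 ATAC-seq peak lists of activated B cells that carried a deletion of Brg1 on 1 or on both alleles. The set holds 38 of the 21911 protein-coding genes on chromosomes 1 to 19, X and Y, taken by symbol from a GRCm38 (mm10) annotation. They are the signal chains Cd79a and Cd79b, the kinases that start the cascade, its adaptors, the coreceptor and inhibitory receptors, and the branches that lead through PI3K, VAV and RAS, BCL10 and MALT1, and calcineurin and NFAT. Overlapping peaks of the 8 lists were joined into 16566 combined regions. A region was placed at a promoter when its centre lay between 1000 bp upstream and 100 bp downstream of an annotated start site of the gene, and in the gene body when its centre lay elsewhere within the gene. The 38 genes had 26 promoter regions and 48 body regions, set against 9329 promoter and 4293 body regions in all. The region over the Ppp3cb start, counted in the 48, is also the promoter of 1810062O18Rik. It therefore lies among the 9329 and not the 4293.

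ATAC-seq marks open chromatin by the insertion of a transposase, and the peak caller MACS2 lists the sites where fragments pile up above the background around them. All 8 libraries came from splenic B cells of C57BL/6 mice heterozygous for CD23-Cre (labelled CD23Cre +/-), a transgene that acts in mature B cells, and 4 were labelled Brg1fl/+ and 4 Brg1fl/fl. Brg1, the product of Smarca4, is an ATPase of the SWI/SNF chromatin remodelling complex, and the Brg1fl/+ cells used as the reference had themselves lost 1 allele where the Cre had acted. B cells were isolated with CD43 microbeads and activated in culture with LPS (10 µg/mL) together with IL-4 (20 ng/mL), where the sample labels give 72 h and the series text 96 h, and 50000 cells went into each library. LPS acts through TLR4 and IL-4 through its own receptor, and no ligand of the B cell receptor is named in the labels.

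The B cell receptor signals through the Cd79a and Cd79b chains, whose tails are phosphorylated by Src family kinases and then bind Syk. Syk phosphorylates the adaptor Blnk, which brings Btk to Plcg2, and Plcg2 generates the messengers that release calcium and activate protein kinase C. Calcium activates calcineurin and with it the NFAT factors, protein kinase C activates Bcl10 and Malt1 upstream of NF-kB, and the coreceptor and the inhibitory receptors set the strength of the signal.

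The lists held 14614, 11283, 6372 and 7632 peaks in Brg1fl/+ replicates 1 to 4 and 9216, 6271, 8500 and 8605 in Brg1fl/fl replicates 1 to 4. Brg1fl/+ replicates 1 and 2 stood apart by their length. The lowest local background, in fragments expected at a summit, was 1.3, 0.806, 0.541 and 0.735 in the Brg1fl/+ and 1.67, 0.783, 1.46 and 1.38 in the Brg1fl/fl libraries. By this minimum the longest list did not have the highest background. Median fragments at the summits of member promoters found in all 8 lists were 143, 88, 43 and 71 in Brg1fl/+ and 90, 39, 76 and 83 in Brg1fl/fl. They were highest in the longest list and lowest in the shortest, and the cause of the list lengths was not tested. Whether each library was a separate mouse is not given, so p-values between genotypes measure only the spread between these libraries, which may be technical. At 3976 promoters, libraries 1 and 2 and libraries 3 and 4 of Brg1fl/+ differed by no more than sampling noise (variance ratios 0.948 and 0.808), whereas other Brg1fl/+ pairs gave 1.08 to 1.59. All 6 Brg1fl/fl pairs were at 0.849 to 1.03. The mitochondrial share of summit fragments differed within both of those Brg1fl/+ pairs (chi-square p = 2.35e-60 and 9.14e-41) and within every Brg1fl/fl pair other than replicates 3 and 4 (p = 0.334), and leaving out either of these called no member region. The chi-square tests take each fragment as a unit, so their p-values measure counting error and not the spread between libraries. The 8 were kept as separate libraries, and values with libraries 1 and 2, and 3 and 4, joined are given where counts are compared. Peaks lay at the promoters of all 6 B cell markers (Ms4a1, Pax5 and Cd74 in all 8 lists), of Sdc1 and Xbp1 among 4 plasma cell markers, and of Itga2b among 3 platelet markers, and of none of 17 T, NK, myeloid and erythroid markers. The Smarca4 promoter had a peak in 4 of 4 lists of each genotype, which does not check the deletion.

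Peaks were found at the promoters of 23 of the 38 members (60.5%) in at least 1 list, against 43.1% of protein-coding genes. Only 6 members (15.8%) had a promoter region in all 8 lists, against 20.6% of protein-coding genes. Counted by region, 6 of the 26 member promoter regions were in all 8 lists (23.1%), against 42.7% of all promoter regions. The 6 members were Grb2, Vav2, Bcl10, Malt1, Ppp3ca and Nfatc3, which are adaptors, enzymes and a transcription factor used in many cell types. No signal chain, proximal kinase, coreceptor, inhibitory or PI3K branch gene had such a promoter, and of the 5 proximal kinases Fyn alone had a promoter region in any list. Counting any region that overlapped a promoter window, whatever its centre, added Lyn, Plcg2, Dapp1, Fcgr2b, Gsk3b and Ppp3cb, for 29 members (76.3%, against 47.7%) and 8 in all lists (21.1%, against 22.2%). The remaining 9 members, Cd79b, Syk, Blk, Btk, Bank1, Cd22, Inpp5d, Ptprc and Pik3ap1, had no peak over a start site in any list. A list holds only peaks past the caller's threshold, so a missing peak is not evidence of closed chromatin.

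**Figure D1:**
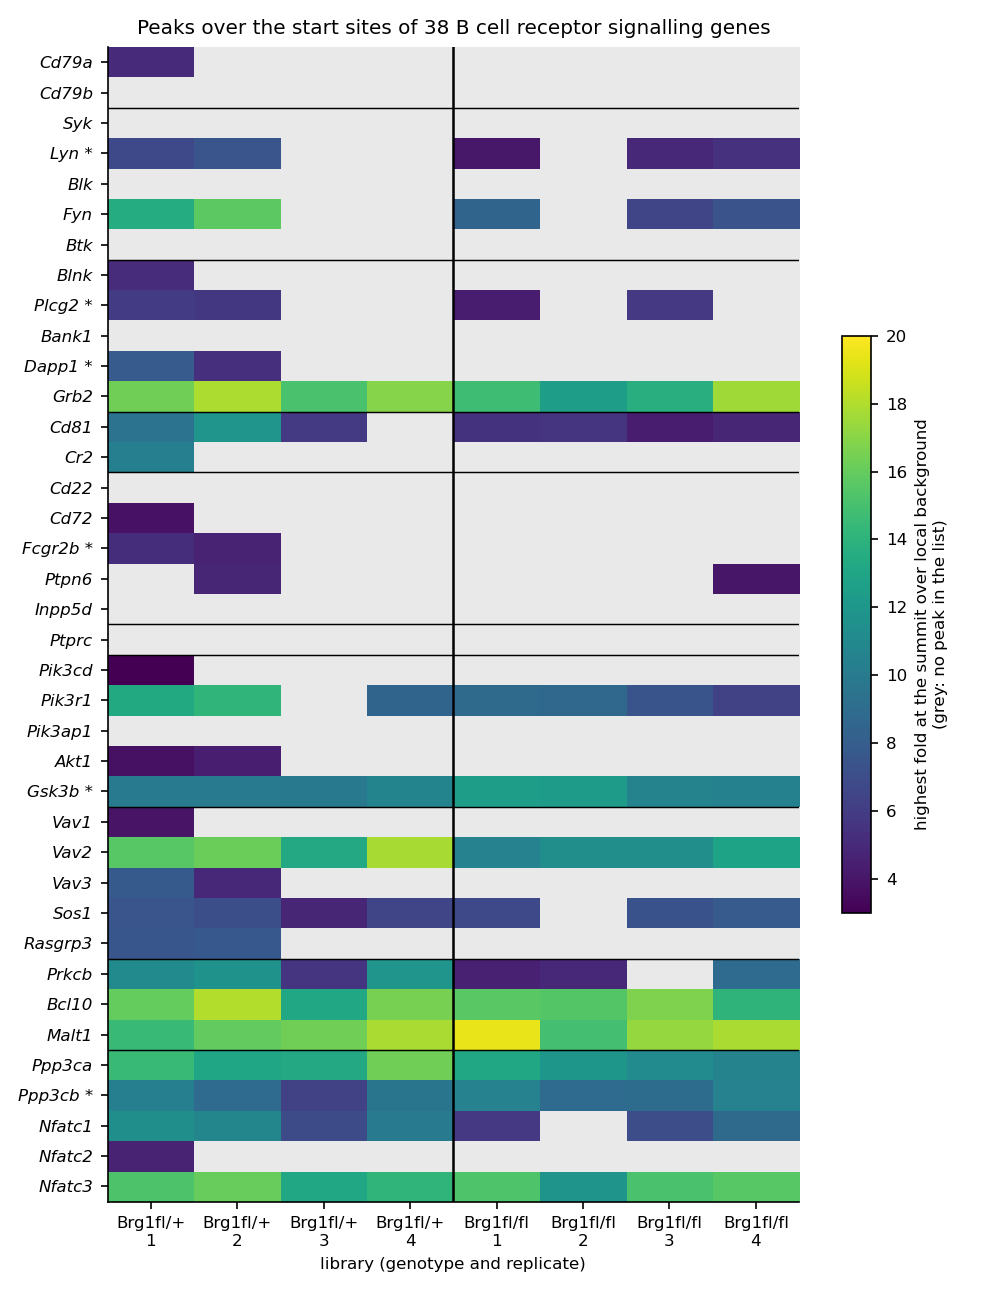
Fold of the peak summit over local background (colour, highest region overlapping a promoter window) for 38 members (rows, grouped by role) in 8 libraries (columns); grey cells have no peak and an asterisk marks members whose region is centred in the gene body. Rows filled in all 8 columns are Grb2, Gsk3b, Vav2, Bcl10, Malt1, Ppp3ca, Ppp3cb and Nfatc3, and 12 rows are filled only in Brg1fl/+ replicates 1 and 2.

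The number of lists with a peak over a member's promoter varied with the CpG content of that promoter. RefSeq gave a promoter of 300 bases (250 before to 50 after the start) for 32 members, all but Blk, Cd79b, Lyn, Malt1, Nfatc1 and Ppp3ca. CpG content was expressed as observed over expected from base composition. Of the 14 members at or above 0.6, 12 had a peak over these bases (85.7%, against 79.1% of 8404 protein-coding genes in that class). Of the 18 members below 0.6, 11 had one (61.1%, against 14.2% of 8118). The 11 were Blnk, Cd72, Cd79a, Cr2, Dapp1, Fcgr2b, Nfatc2, Pik3cd, Rasgrp3, Vav1 and the inner start of Grb2. All 11 had their peaks in Brg1fl/+ replicates 1 and 2 and in no other list, which was the case for 38.4% of the 1155 protein-coding genes with a CpG-poor promoter and a peak. The RefSeq entry of Ptpn6, CpG-poor and without a peak, is at a start other than that of its promoter region. That region had a CpG content of 0.36 within 100 bp of its summit. It had peaks in Brg1fl/+ replicate 2 and Brg1fl/fl replicate 4. In the CpG-rich class, peaks in Brg1fl/+ replicates 1 and 2 alone were found for 2 of 12 members, Akt1 and Vav3 (16.7%, against 10.2%). With every list shortened to its best 6271 peaks, none of the 18 CpG-poor member promoters had a peak, against 7.26% of protein-coding genes in that class, and 9 of the 14 CpG-rich ones did (64.3%, against 64.9%). These are descriptions of promoter classes and carry no test.

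The promoters of Bcl10, Cd79a and Btk are shown as examples, with each CG in capitals. They are given 5′ to 3′ on the strand of the gene, from RefSeq on GRCm38: Bcl10 (chr3:145924012-145924311, plus strand), with 26 CG and a peak in 8 lists, Cd79a (chr7:24897247-24897546, plus strand), with 8 CG and a peak in 1 list, and Btk (chrX:134583091-134583390, minus strand), with 3 CG and none.
Bcl10: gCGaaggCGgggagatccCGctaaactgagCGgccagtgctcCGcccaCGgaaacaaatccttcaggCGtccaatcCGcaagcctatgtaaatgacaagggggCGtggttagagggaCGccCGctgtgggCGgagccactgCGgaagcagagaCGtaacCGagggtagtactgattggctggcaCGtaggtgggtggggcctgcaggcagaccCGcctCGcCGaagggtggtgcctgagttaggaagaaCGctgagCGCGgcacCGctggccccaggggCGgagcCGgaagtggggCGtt
Cd79a: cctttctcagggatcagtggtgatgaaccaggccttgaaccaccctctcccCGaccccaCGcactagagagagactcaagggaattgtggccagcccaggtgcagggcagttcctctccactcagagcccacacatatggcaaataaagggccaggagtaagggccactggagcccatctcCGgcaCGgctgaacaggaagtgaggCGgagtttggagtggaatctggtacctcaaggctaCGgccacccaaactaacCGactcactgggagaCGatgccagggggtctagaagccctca
Btk: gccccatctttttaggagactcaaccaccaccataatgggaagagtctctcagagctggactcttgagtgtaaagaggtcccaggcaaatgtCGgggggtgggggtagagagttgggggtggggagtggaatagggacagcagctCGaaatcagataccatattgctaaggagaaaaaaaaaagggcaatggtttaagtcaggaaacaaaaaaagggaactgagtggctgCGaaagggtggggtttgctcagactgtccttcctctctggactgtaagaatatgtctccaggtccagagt
The observed over expected CpG content of these sequences was 0.851, 0.314 and 0.179. Over the members with a RefSeq promoter it ran from 0.112 (Vav2) to 0.964 (Nfatc3). Syk (0.8) and Pik3ap1 (0.719) were CpG-rich and had no peak.

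**Figure D2:**
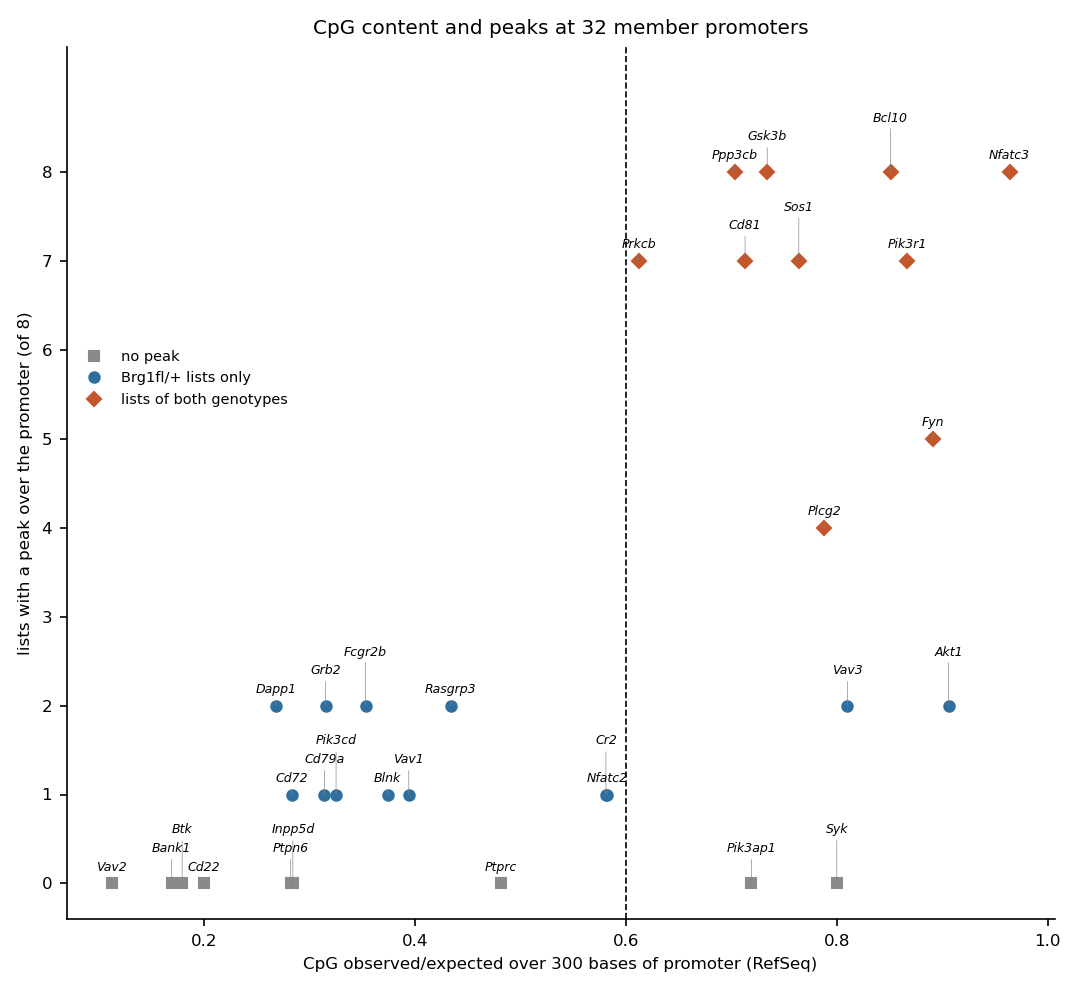
CpG observed over expected in the 300-base RefSeq promoter (x axis) against the number of the 8 lists with a peak over it (y axis) for 32 members; the dashed line is at 0.6. Left of the line no member exceeded 2 lists and no peak came from a Brg1fl/fl list; right of it 10 members had peaks in lists of both genotypes. The entries of Grb2 and Vav2 are at starts other than those of their regions found in all 8 lists. That of Ptpn6 is at a start other than that of its promoter region, which had peaks in Brg1fl/+ replicate 2 and Brg1fl/fl replicate 4.

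At the receptor itself, Cd79a and Cd79b encode the chains that carry its signalling motifs. Cd79a had a promoter peak in Brg1fl/+ replicate 1 alone, with a fold of 5.05 over background (chr7:24897209-24897485, over the start site). Cd79b had no region of either kind, as was also the case for Btk, the kinase that activates phospholipase C, and Cd22, an inhibitory lectin that recruits phosphatases. Of the Src family kinases, Fyn had a promoter region of fold 13.5 and 15.7 in Brg1fl/+ replicates 1 and 2, no peak in replicates 3 and 4, and 8.45, 6.57 and 7.35 in Brg1fl/fl replicates 1, 3 and 4. Lyn, which phosphorylates both activating and inhibitory receptors, had a region over its start site, centred in the gene, in the same 5 libraries, with folds of 6.75 and 7.48 in Brg1fl/+ and 4.11, 4.88 and 5.42 in Brg1fl/fl. For both kinases the 2 Brg1fl/+ values were above the 3 Brg1fl/fl values, while replicates 3 and 4 of Brg1fl/+ had no peak. Of 10 member regions with a peak in at least 2 lists of each genotype but not in all 8, 4 had every Brg1fl/fl fold below every Brg1fl/+ fold (Fyn, Lyn, Cd81 and an intronic region of Sos1), as did 44.0% of all 3370 such regions. The median fold over all promoters found in 8 lists was 13.9 and 13.5 in Brg1fl/+ replicates 1 and 2 and 9.43 to 11.4 in Brg1fl/fl. Blk and Syk had no peak over a start site, and each had 1 intronic region.

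Among adaptors, Grb2, which links receptors to SOS and RAS, was the only gene among the chains, kinases and adaptors with a promoter region in all 8 lists. Its region at the first start (chr11:115708223-115708956) had folds of 16.3, 17.9, 15.1 and 16.9 in Brg1fl/+ and 14.7, 12.5, 13.7 and 17.6 in Brg1fl/fl replicates 1 to 4, and the genotypes overlapped. Another region, at a start further into Grb2, had a peak only in Brg1fl/+ replicates 1 and 2 (folds 10.0 and 7.34). Blnk, the scaffold that joins Syk, Btk and Plcg2, had a promoter peak of fold 5.15 in Brg1fl/+ replicate 1 alone. Plcg2, the phospholipase of the pathway, had a region over its only start site, with its summit 221 bp inside the gene, with folds of 6.00 and 5.74 in Brg1fl/+ replicates 1 and 2 and 4.33 and 5.84 in Brg1fl/fl replicates 1 and 3. Dapp1, an adaptor that binds phosphoinositides, had a region over its start with folds of 7.89 and 5.39 in Brg1fl/+ replicates 1 and 2. Bank1, a scaffold of Lyn and calcium channels, had no peak over a start site.

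The coreceptor genes Cd81 and Cr2 differed. Cd81, a tetraspanin of the coreceptor, had promoter folds (chr7:143052574-143053486) of 9.46, 11.8 and 5.86 in Brg1fl/+ replicates 1 to 3, no peak in replicate 4, and 5.47, 5.57, 4.34 and 4.85 in Brg1fl/fl. The Brg1fl/fl values lay below the lowest Brg1fl/+ value, as in 44.0% of regions of this kind, and 1 Brg1fl/+ library had no peak. Cr2, the complement receptor CD21, had a peak of fold 10.3 in Brg1fl/+ replicate 1 alone. Among inhibitory genes, Cd72 had a promoter peak of fold 3.86 in Brg1fl/+ replicate 1. Ptpn6, which encodes the phosphatase SHP-1, had one of 4.81 in Brg1fl/+ replicate 2 and of 4.01 in Brg1fl/fl replicate 4. The inhibitory Fc receptor gene Fcgr2b had a region that overlapped its promoter window in Brg1fl/+ replicates 1 and 2 (5.22 and 4.72). Inpp5d, which encodes the lipid phosphatase SHIP-1, and Ptprc, which encodes CD45, had none.

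In the PI3K branch, Pik3r1 encodes the regulatory subunit p85 and Pik3cd the catalytic subunit p110 delta. The promoter of Pik3r1 had folds of 13.3, 14.1 and 8.51 in Brg1fl/+ replicates 1, 2 and 4 and of 8.86, 8.77, 7.44 and 6.26 in Brg1fl/fl. The groups overlapped through Brg1fl/+ replicate 4, and replicate 3 had no peak. The Pik3cd promoter had 1 peak (2.88, Brg1fl/+ replicate 1). Akt1, the kinase downstream of PI3K, had a peak in Brg1fl/+ replicate 1 (3.76) and another, at a neighbouring start, in replicate 2 (4.42), and none in Brg1fl/fl. Gsk3b, a kinase inhibited by AKT, had a region over its start in all 8 lists with folds of 10.1, 10.1, 9.85 and 10.7 in Brg1fl/+ and 12.5, 12.3, 10.6 and 10.5 in Brg1fl/fl, which overlapped. Pik3ap1, the adaptor BCAP, had no peak over a start.

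The 3 VAV genes encode exchange factors for small GTPases, and their promoters were seen to very different extents. Vav2 had a promoter region in all 8 lists (chr2:27426677-27427389), with folds of 15.6, 16.2, 13.2 and 17.8 in Brg1fl/+ and 10.6, 11.4, 11.4 and 12.9 in Brg1fl/fl. The deposited folds of the genotypes did not overlap (12.4% of all 4593 regions in 8 lists), but the median fold over all promoters in 8 lists was also lower in Brg1fl/fl (10.9 ± 0.969, against 12.6 ± 1.44, SD, n = 4). Vav3 had a peak in Brg1fl/+ replicates 1 and 2 (7.79 and 4.96) and Vav1, the family member typical of blood cells, in replicate 1 (3.92). Rasgrp3, which activates RAS in response to diacylglycerol, had a promoter peak in Brg1fl/+ replicates 1 and 2 (7.53 and 7.69) and none in Brg1fl/fl. Sos1, the exchange factor bound by Grb2, had folds of 7.45, 7.08, 4.85 and 6.53 in Brg1fl/+ and 6.75, 7.25 and 7.88 in Brg1fl/fl replicates 1, 3 and 4, which overlapped.

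The genes between protein kinase C and NF-kB all had promoter regions. Bcl10 and Malt1 form the complex that activates NF-kB. The Bcl10 promoter had folds of 16.0, 18.0, 13.1 and 16.5 in Brg1fl/+ and 15.7, 15.5, 16.7 and 14.1 in Brg1fl/fl. That of Malt1 had 14.5, 15.9, 16.3 and 17.8 in Brg1fl/+ and 19.5, 14.9, 17.3 and 17.9 in Brg1fl/fl. Both sets overlapped. Prkcb, the isoform of protein kinase C that acts in this pathway, had folds of 11.1, 11.7, 5.57 and 11.9 in Brg1fl/+ and 4.58, 4.99 and 8.93 in Brg1fl/fl replicates 1, 2 and 4, with no peak in replicate 3. The highest Prkcb value of Brg1fl/fl lay within the Brg1fl/+ range and the others below it.

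Of the calcineurin and NFAT genes, Ppp3ca and Ppp3cb encode catalytic subunits of calcineurin. The Ppp3ca promoter had folds of 14.6, 13.1, 13.3 and 16.3 in Brg1fl/+ and 13.2, 12.0, 11.2 and 10.6 in Brg1fl/fl. The region at the start of Ppp3cb (chr14:20545922-20546644), which is also the promoter of 1810062O18Rik, had 10.4, 8.94, 6.36 and 9.59 in Brg1fl/+ and 10.6, 8.94, 9.02 and 10.6 in Brg1fl/fl. Both overlapped between genotypes as deposited. Nfatc3 had a promoter in all 8 lists, with folds of 15.3, 16.0, 13.2 and 14.1 in Brg1fl/+ and 15.3, 11.8, 15.1 and 15.6 in Brg1fl/fl, which overlapped. Nfatc1, the NFAT gene induced by receptor signals, had a promoter peak in 7 lists (6.98 to 11.5 in Brg1fl/+, 5.83 to 8.89 in Brg1fl/fl). Nfatc2 had one in Brg1fl/+ replicate 1 alone (4.71).

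Whether the loss of the second Brg1 allele changed these sites was asked first by detection. A peak was present in fewer Brg1fl/fl than Brg1fl/+ lists at 16 of 26 member promoter regions (61.5%, against 36.7% of all promoter regions), and in more at 3 (11.5%, against 10.9%), those of Fyn, Cd81 and Pik3r1. No member region, at a promoter or in a body, was present in all 4 lists of 1 genotype and absent from the other 4 (0.15% and 0.0107% of all promoter regions, 0.629% and 0.256% of all body regions). By Fisher's exact test (two-sided, Benjamini-Hochberg over 16566 regions, smallest possible p = 0.0286) no member region passed an adjusted p of 0.05, nor did any promoter or body region of any gene. With that smallest p, passing would need most of the 16566 regions to be split 4 against 0. So few were that the adjusted test could not pass, and no conclusion is drawn from it. No member region was below 0.05 unadjusted, against 0.161% of all promoter and 0.885% of all body regions.

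The number of members with a promoter region was 22, 16, 10 and 10 in Brg1fl/+ replicates 1 to 4 and 12, 9, 11 and 13 in Brg1fl/fl replicates 1 to 4. The means were 14.5 ± 5.74 and 11.3 ± 1.71 (SD, n = 4). The difference of -3.25 was smaller than the spread between the Brg1fl/+ libraries, and it came from replicates 1 and 2, the longest lists. Without Brg1fl/+ replicate 1 it was -1.42, and without both of these libraries, a choice made after seeing the data, it was 0.75, with more members in Brg1fl/fl. Libraries joined in pairs gave 17.0 and 12.5. Of the promoter regions, 13 of 26 had a peak in no list other than Brg1fl/+ replicates 1 and 2 (50.0%, against 19.3% of all promoter regions). With 6271 peaks from every list, the members with a promoter region numbered 11, 11, 10 and 10 in Brg1fl/+ and 10, 9, 10 and 10 in Brg1fl/fl, and of 12 promoter regions 3 were in fewer and 2 in more Brg1fl/fl lists (20.7% and 18.7% of all promoter regions).

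**Figure D3:**
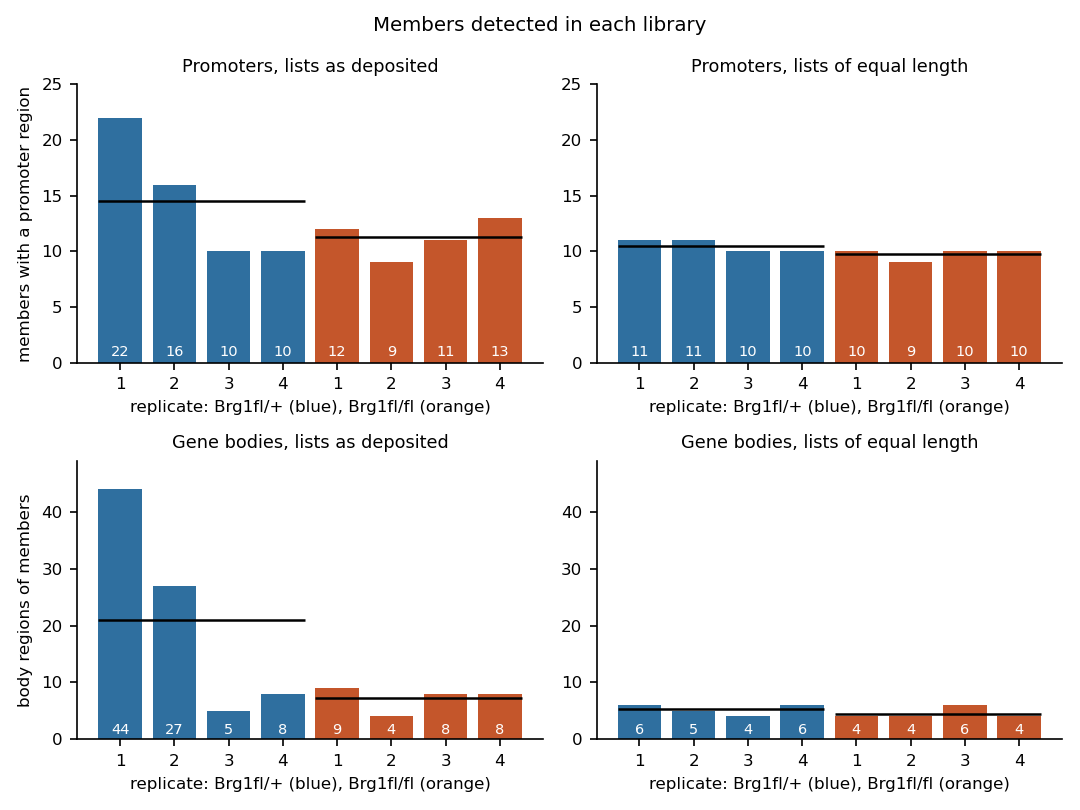
Members with a promoter region (top) and body regions of members (bottom) in each library, for the lists as deposited (left) and for the best 6271 peaks of each list (right); black lines are the means of 4 libraries. In the deposited lists Brg1fl/+ replicates 1 and 2 stand above all other libraries in both counts; in lists of equal length the counts are 9 to 11 members and 4 to 6 body regions.

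Levels were then compared at the regions with a peak in all 8 lists, 9 of which belonged to members. Log2 folds were quantile normalized over 4593 such regions and tested with limma, which called 61 regions lower (1.33%) and 50 higher (1.09%) in Brg1fl/fl at an adjusted p of 0.05. Median centring called 61 and 75. None of the 6 promoter regions (1.76% of all promoters tested) and 3 body regions (2.42% of all regions tested) of members was called, and 4 of the 9 had an unadjusted p below 0.05, against 21.5% of all 4593 regions. Most of the 4593 were promoters, so 2.42% is not a share of body regions. The median difference was 0.04 on the log2 scale over the 6 promoters, with 3 below 0, against -0.0039 over 3982 promoters, of which 50.7% were below 0. Over the 3 body regions the median was 0.368, with 0 below 0. Over all 403 body regions in 8 lists it was 0.0675, with 155 below 0, and no test of the set was run. The sets are unlike: the member regions of Gsk3b and Ppp3cb covered a start site. The Ppp3cb region, also the promoter of another gene, is not among the 403. Placed by overlap, only the intronic region of Nfatc1 stayed a body region. In a bulk library, fewer cells with an open site and less opening per cell cannot be told apart.

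Among these 9 regions Vav2 had the lowest difference, a log2 value of -0.27 (SE 0.112, limma adjusted p = 0.187). Its normalized folds were 13.6, 14.4, 14.2 and 17.1 in Brg1fl/+ and 10.8, 13.6, 11.8 and 13.1 in Brg1fl/fl, which met at 13.6. The region over the Ppp3cb start was at 0.37 (SE 0.108, adjusted p = 0.0805 by limma). Here the normalized folds were 8.35, 7.59, 7.28 and 9.25 in Brg1fl/+ and 10.8, 11.1, 9.31 and 10.8 in Brg1fl/fl, and every Brg1fl/fl library was above every Brg1fl/+ library (7.38% of all 4593 regions). No member region had every Brg1fl/fl library below every Brg1fl/+ library on this scale (5.44% of all regions). When fragments at the summit, recovered from the deposited fold and p, were used in place of the fold, this region passed, with a log2 difference of 0.56 (limma adjusted p = 0.0297, and 0.0297 to 0.29 over all alternatives). In that fit 5.8% of 4583 regions passed, and 3.4% of the 4583 were higher in Brg1fl/fl. As the promoter is shared with 1810062O18Rik, the value belongs to both genes.

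Gsk3b had a log2 difference of 0.37 (SE 0.130, limma adjusted p = 0.125), with normalized folds of 8.12 to 10.9 in Brg1fl/+ and 10.7 to 14.5 in Brg1fl/fl. Malt1 was at 0.27 (SE 0.119, adjusted p = 0.210), with 12.4 to 17.1 and 17.0 to 19.7. The intronic region of Nfatc1 was at 0.22, the promoter of Nfatc3 at 0.14 and that of Bcl10 at 0.11, whereas Ppp3ca was at -0.09 and Grb2 at -0.03. The signs of Malt1, Bcl10 and Grb2 turned when recovered fragments were used (-0.008, -0.23 and 0.004), and no direction is given for them. In the same fit Nfatc3 was at 0.008, Gsk3b at 0.14 and Nfatc1 at 0.59, and leaving out 1 library moved Nfatc1 to between 0.12 (without Brg1fl/+ replicate 3) and 0.33 (without Brg1fl/fl replicate 4). Widening the fit to regions with a peak in at least 3 lists of each genotype brought in 6 further member regions, and none of the 15 passed. Of all 6530 regions in this wider fit, 63 passed as lower and 73 as higher in Brg1fl/fl. In that fit Cd81 was at -0.56 (SE 0.169, limma adjusted p = 0.0894), Prkcb at -0.49 (adjusted p = 0.258) and Sos1 at 0.39 (SE 0.125, adjusted p = 0.0991).

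**Figure D4:**
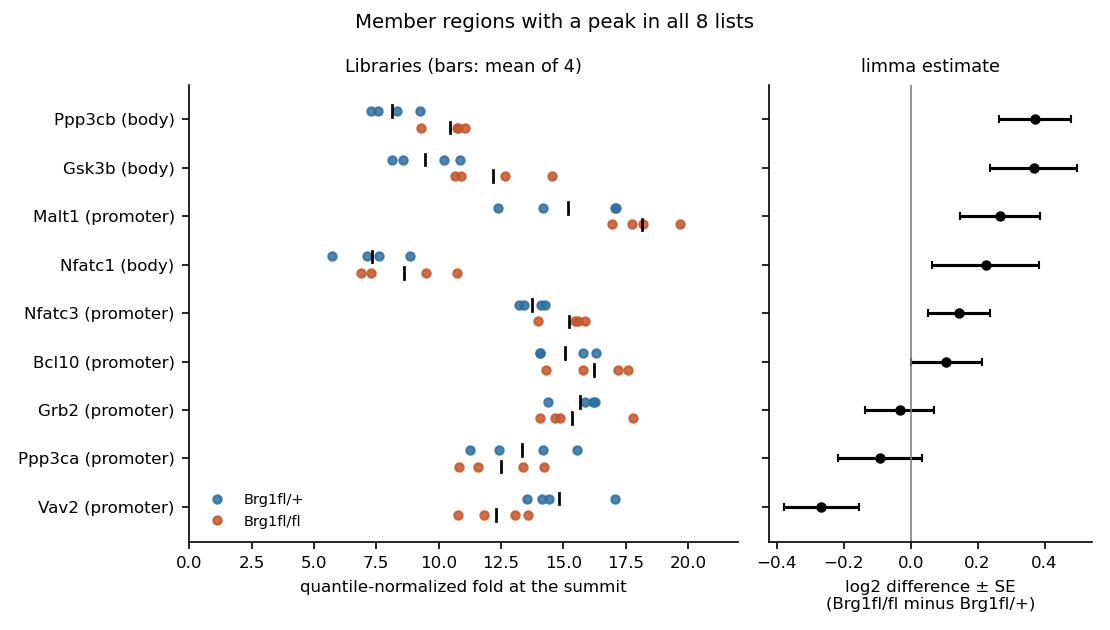
Quantile-normalized folds in each library (left, black bars are means of 4) and the limma log2 difference with its SE (right) for the 9 member regions with a peak in all 8 lists. Only at Ppp3cb do the 4 Brg1fl/fl points lie apart from the 4 Brg1fl/+ points, and no region passed an adjusted p of 0.05.

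Gene bodies of the members held many regions for their length. There were 48 in 23 members, or 1.33 per 100 kb, against 0.433 per 100 kb over all protein-coding genes, and 60.5% of members had at least 1, against 15.6%. The members were also longer (median 65.6 kb, against 17.4 kb). A peak was present in all 8 lists at 3 of the 48 (6.25%, against 9.39% of all body regions). The summit lay in an intron in 45, and 5 covered a start site, those of Lyn, Plcg2, Dapp1, Gsk3b and Ppp3cb. Inpp5d and Vav2 had 5 regions each and Rasgrp3 had 4. The 5 regions of Inpp5d, from 1708 to 38828 bp into the gene, had peaks in Brg1fl/+ replicates 1 and 2 alone (folds 3.45 to 8.32). The 4 of Rasgrp3, from 7344 to 82726 bp into the gene, were also confined to these libraries (6.00 to 9.19). Of those of Vav2, 3 came from Brg1fl/+ replicates 1 and 2 (5.50 to 7.06), 1 from Brg1fl/fl replicate 1 (4.11) and 1 from Brg1fl/fl replicate 4 (4.62), the only member regions seen in Brg1fl/fl lists alone.

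A few intronic regions were seen across the libraries. The one in Nfatc1, 100986 bp into the gene, had a peak in all 8 lists, with folds of 9.45, 10.5, 5.14 and 7.25 in Brg1fl/+ and 9.26, 8.66, 7.06 and 6.90 in Brg1fl/fl. An intronic region of Ptpn6 had one in 7 lists, with folds of 8.08, 5.90, 6.11 and 6.17 in Brg1fl/+ and 6.58, 7.02 and 5.15 in Brg1fl/fl. An intronic region of Sos1 was seen in 5 lists (16.4, 15.1 and 13.5 in Brg1fl/+ replicates 1, 2 and 4, and 11.1 and 10.8 in Brg1fl/fl replicates 3 and 4). In the libraries with a peak the Brg1fl/fl values of Sos1 lay below those of Brg1fl/+, as in 44.0% of regions seen in part of the lists. The intronic region of Syk, which had no start-site peak, had folds of 8.73, 8.58 and 9.10 in Brg1fl/+ replicates 1, 2 and 4 and 6.79 in Brg1fl/fl replicate 3. A region of Ptprc seen in Brg1fl/+ replicates 1 and 2 had 11.6 and 9.31.

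The genotype difference of the body regions followed the lists in the same way. A peak was present in fewer Brg1fl/fl lists at 40 of 48 (83.3%, against 63.1% of all body regions) and in more at 4 (8.33%, against 20.5%). Per library the members had 44, 27, 5 and 8 body regions in Brg1fl/+ and 9, 4, 8 and 8 in Brg1fl/fl (21.0 ± 18.2 and 7.25 ± 2.22, SD, n = 4). Brg1fl/+ replicate 1 held 91.7% of the member body regions and 79.3% of all body regions. Of the 48, 33 were in no list other than Brg1fl/+ replicates 1 and 2 (68.8%, against 50.0%), and without both libraries the difference of -13.8 became 1.25. Libraries joined in pairs gave 27.5 and 10.0. Without Brg1fl/+ replicate 1 alone it was -5.42, from 31 regions. In lists of equal length 9 regions were left, with 6, 5, 4 and 6 per library in Brg1fl/+ and 4, 4, 6 and 4 in Brg1fl/fl. Of these, 4 were in fewer Brg1fl/fl lists and 1 in more (44.4% and 11.1%, against 31.8% and 39.8% of all body regions).

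**Figure D5:**
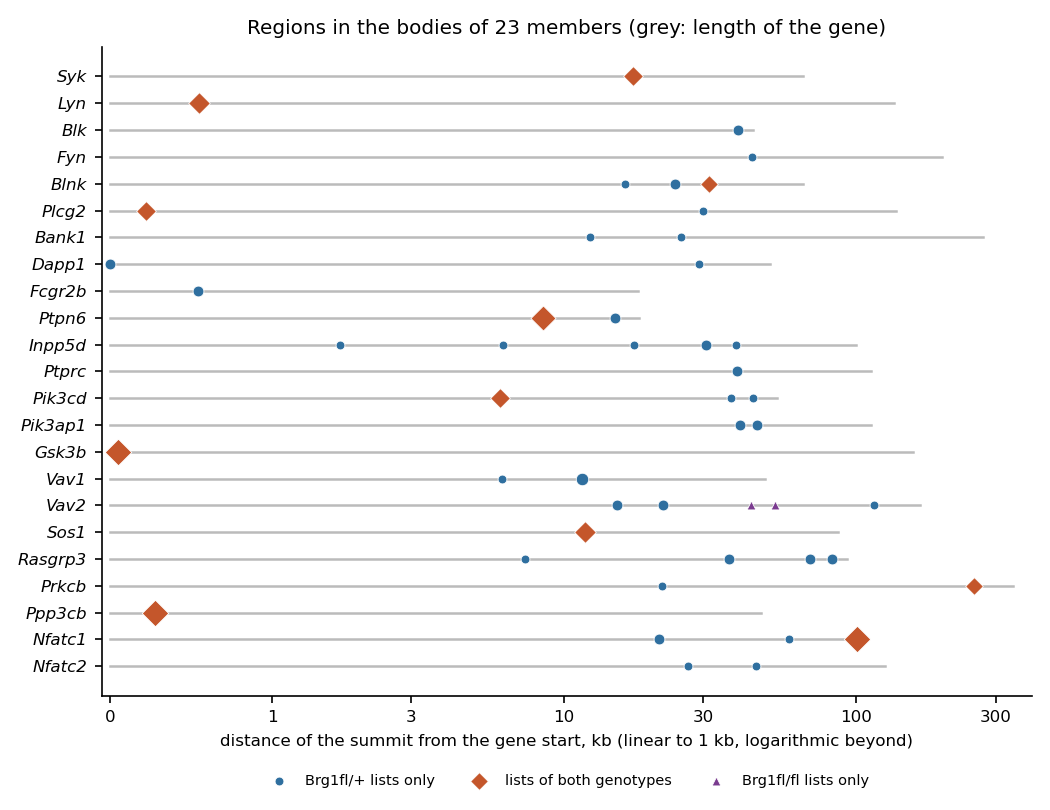
Summits of the 48 body regions of members by distance from the gene start (x axis, linear to 1 kb and logarithmic beyond), with marker size growing with the number of lists; a summit 10 bp upstream of the Dapp1 start is drawn at 0. Circles (Brg1fl/+ lists only) outnumber diamonds (both genotypes), and the 2 triangles in Vav2 are the only regions seen in Brg1fl/fl lists alone.

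The promoters of the members were searched for motifs of factors that act in B cells, on both strands. The octamer ATGCAAAT, bound by OCT factors, was in the RefSeq promoters of 2 of 32 members, Prkcb and Blnk (6.25%, against 1.65% of 16522 protein-coding genes). The PU.1-type motif GAGGAAG was in 7, those of Btk, Cd72, Grb2, Inpp5d, Nfatc3, Pik3ap1 and Vav1 (21.9%, against 13.1%). The ETS-family motif CGGAAG was in 6 (18.8%, against 22.6%) and the GC box GGGCGG in 17 (53.1%, against 48.9%). The ETS-family and PU.1-type motifs share GGAAG but cannot be the same match. The EBF1-type motif CCCNNGGGA was in 3 (Cd22, Fyn and Vav3), 9.38% against 7.32%, and the E box CAGCTG in 5, 15.6% against 15.1%. The RUNX motif TGTGGT was in 2 (6.25%, against 14.8%), the CCAAT box in 7 (21.9%, against 38.7%) and TATAAA in 4 (12.5%, against 12.7%). The AP-1 motif TGANTCA and the NF-kB type motif were in none, against 6.98% and 0.41%. Within 100 bp of the summits of the 26 member promoter regions, GAGGAAG was in 8 (30.8%, against 9.39% of 9327 promoter regions), CGGAAG in 5 (19.2%, against 30.7%), ATGCAAAT in 2 (7.69%, against 1.25%) and TGTGGT in none (against 7.04%). In the same window the GC box was in 18 (69.2%, against 68.1%), the CCAAT box in 6 (23.1%, against 33.7%) and the E box in 3 (11.5%, against 9.61%). The EBF1-type motif and TATAAA were in 1 each (3.85%, against 6.1% and 2.48%). The AP-1 and NF-kB type motifs were in none (against 2.38% and 0.44%). Within 250 bp GAGGAAG was in 10 (38.5%, against 20.8%), CGGAAG in 8 (30.8%, against 45.4%) and TGTGGT in 2 (7.69%, against 18.0%). A match is a stretch of letters, not evidence of binding.

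Both octamer promoters are shown as 120 bases around the motif, in capitals, since they share it but not their peaks. Prkcb (chr7:122288999-122289118, plus strand) had a peak in 7 lists and a CpG content of 0.612, and Blnk (chr19:40994288-40994407, minus strand) had one in 1 list and a CpG content of 0.374. In Blnk the motif is on the opposite strand.
Prkcb: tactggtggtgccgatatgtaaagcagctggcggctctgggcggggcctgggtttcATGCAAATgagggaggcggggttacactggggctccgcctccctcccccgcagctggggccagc
Blnk: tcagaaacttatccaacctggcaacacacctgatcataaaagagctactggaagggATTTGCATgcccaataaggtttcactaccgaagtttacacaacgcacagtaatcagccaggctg
The PU.1-type motif (capitals, 60 bases around it) is shown in 4 CpG-poor promoters, of which Cd72 (chr4:43454642-43454701, minus strand) and Vav1 (chr17:57279062-57279121, plus strand) had a peak in Brg1fl/+ replicate 1 and Btk (chrX:134583100-134583159, minus strand) and Inpp5d (chr1:87620265-87620324, plus strand) had none.
Cd72: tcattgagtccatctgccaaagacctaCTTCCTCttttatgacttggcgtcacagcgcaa
Vav1: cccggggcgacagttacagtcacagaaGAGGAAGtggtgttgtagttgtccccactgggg
Btk: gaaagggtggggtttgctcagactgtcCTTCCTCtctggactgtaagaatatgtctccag
Inpp5d: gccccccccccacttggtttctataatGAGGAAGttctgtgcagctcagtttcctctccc
In Cd72 and Btk it is on the opposite strand. The same letters were thus present in promoters with and without a listed peak.

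A further 52 genes of the pathway that are no members, such as other PI3K and AKT isoforms, calcium channels, RAS and MAP kinases and adaptors, had more constant promoters. Of these 40 had a promoter region in at least 1 list and 23 in all 8, against 23 and 6 of the 38 members. Over all protein-coding genes the shares were 43.1% and 20.6%. None of the 23 tested regions, all at promoters, was called by limma in either direction, against 1.76% of all promoters tested. An unadjusted p below 0.05 was found at 9, against 21.5% of all regions tested. In lists of equal length 33 of the 52 and 12 of the 38 had a promoter region in at least 1 list. In any single list of that length 24.8% to 27.4% of protein-coding genes had one, and 9 to 11 of the 38 members. The share of protein-coding genes in at least 1 such list was not computed by this rule, so 12 of 38 has no like share beside it. Over RefSeq promoters in at least 1 such list, members were at 64.3% against 64.9% in the CpG-rich class. In the CpG-poor class they were at 0.0% against 7.26%.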

How the data were processed

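ATAC-seq peak lists of 8 libraries, 4 per genotype, were used as deposited. The 8 RNA-seq samples were not analysed here. By the study's methods and labels, the authors used Bowtie2 for alignment to mm10 and ran MACS2 on every library by itself. Versions and options are not given in the sources used here, nor is the handling of duplicates. The deposited lists give for each summit its fold over local background, a ratio, and its −log10 p and −log10 q, whose lowest value was 1.31. A score of 10 times −log10 q in the deposited lists was not used. Library depth was not used here. Fragments at a summit were solved from the deposited fold and −log10 p, within 0.002 of the deposited value, for 99.7% to 100.0% of peaks, and their median at the member promoters found in all 8 lists was 143, 88, 43 and 71 in Brg1fl/+ and 90, 39, 76 and 83 in Brg1fl/fl. These counts carry counting error and cover it only.

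Peaks of the 8 lists that overlapped by 1 bp or more were joined. Regions were placed with GENCODE M21 (GRCm38), over all annotated start sites. Genotypes were compared by Fisher's exact test on detection, and by limma 3.58.1 (R 4.3.3) on quantile-normalized log2 folds of regions found in all 8 lists with no covariate, with Benjamini-Hochberg adjustment over all regions and a threshold of 0.05, after tests on simulated data. No pseudocount was needed, as every value was above 0. Sequences came from RefSeq promoters and a GRCm38 genome, read with pysam 0.24.0. Members, roles and gene lists were chosen with earlier results of these data known. Members were given with the value of every library where a test was passed, where detection differed by 2 or more libraries, where no promoter region was found, where a region in all 8 lists ranked among the highest or lowest 3, or where body regions were most numerous. Further members were given in the same way after their values were seen. Alternatives were stricter q limits (5 and 10), 6271 peaks per list, a 50% cover rule, placement by overlap, protein-coding starts only, median centring, recovered fragments, regions in at least 3 lists per genotype, joined pairs, a replicate block, leaving out libraries, and motif windows of 250 in place of 100 bp beside a summit.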

Additional observations from a re-analysis of the deposited data

Results flagged for a closer look

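In 32 groups of 4 libraries, 3 had 1 library farther from the others than Dixon's 95% limit for 4 samples. For continuous values chance alone flags about 1 group in 20. The promoter and body counts below were equal in the other 3 libraries, so a gap of any size passes the limit there. In lists of equal length, Brg1fl/fl replicate 2 had 9 members with a promoter region, and the other 3 Brg1fl/fl libraries had 10 each. In the same lists, Brg1fl/fl replicate 3 had 6 member body regions, and the others had 4 each. At the region over the Ppp3cb start, Brg1fl/fl replicate 3 had a normalized fold of 9.31, and the others had 10.8, 10.8 and 11.1.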

How the results depend on the processing

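No promoter region of a member was called under any of the 21 alternative fits, and the region over the Ppp3cb start was called under 1 of them, recovered fragments (1 body region past the threshold). Members with a promoter region numbered 15 at −log10 q of at least 10, 12 in lists of equal length, 12 without both Brg1fl/+ replicates 1 and 2, and 16 to 23 with 1 library left out. Member body regions numbered 20, 9, 16 and 31 to 48 in the same order, the 31 without Brg1fl/+ replicate 1. The genotype difference in promoter detection was -7.75 without both Brg1fl/+ replicates 3 and 4, 0.75 without 1 and 2, and -4.75 to -1.42 with 1 library left out. That in body regions was -28.2, 1.25 and -19.1 to -5.42, and -0.75 in lists of equal length. Leaving out pairs was chosen after seeing the data. Over all regions tested, calls (lower and higher in Brg1fl/fl) were 51 and 34 at −log10 q of at least 5, 27 and 22 at 10, 36 and 18 with equal lists, 27 and 20 with the cover rule, 61 and 75 by median centring, 110 and 156 by recovered fragments, 63 and 73 for regions in at least 3 lists per genotype, 1 and 2 with joined pairs, 0 and 0 without Brg1fl/+ replicates 1 and 2, and 3 and 7 without 3 and 4. With 1 library left out they were 2 to 48 lower and 4 to 60 higher. The differences that changed sign were Grb2 (-0.11 to 0.006 with 1 library left out, the highest without Brg1fl/fl replicate 3, 0.005 without Brg1fl/+ replicates 3 and 4, 0.013 by median centring, 0.004 by recovered fragments), Ppp3ca (0.084 without Brg1fl/+ replicates 3 and 4), Bcl10 (-0.23) and Malt1 (-0.008), both by recovered fragments, and the cause was not tested.

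Same-numbered libraries of the genotypes had correlations of deviations of 0.0076, -0.0707, -0.0222 and -0.0478 over 4593 regions. Differently numbered libraries of the genotypes had -0.0886 to 0.0833. No pairing by replicate number was seen, but these values cannot exclude one. A replicate block cannot move the differences in detection (-3.25 and -13.8), because each genotype has the same replicate numbers, and no conclusion is drawn from that. In the limma fit with this block, 23 regions were called lower and 15 higher, with no member among them.

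Peak lists hold no value for a site below the caller's limit, and the median fragments at shared member promoters ran from 39 to 143 between libraries, so a missing peak does not show a closed site. Libraries that share a mouse would make p-values too small.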
